A study of Mus musculus with 6 samples.

Results

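Adrenergic receptors are G protein-coupled receptors that bind noradrenaline, released by sympathetic nerves of the vessel wall, and adrenaline from the blood. The α1 receptors couple to Gq and phospholipase C and contract smooth muscle, the α2 receptors couple to Gi and act on nerve endings, endothelium and some smooth muscle, and the β receptors couple to Gs and raise cAMP. Described here are 7 adrenergic receptor genes, taken by symbol from the 55487 genes of the count table: the α1 genes Adra1a, Adra1b and Adra1d, the α2 genes Adra2a, Adra2b and Adra2c, and the β1 gene Adrb1. All 7 passed the filter on low counts and were among the 16565 genes tested, Adra2b only through its counts in the iSM KO group.

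Aortas of 3 Prdm16 iSM KO mice and 3 control mice, all male and on a C57BL/6 background, were profiled by bulk RNA-seq after ribosomal RNA depletion and removal of the adventitial layer. The iSM KO mice were Myh11-CreERT2+; Prdm16 F/F, with a floxed exon 9 of Prdm16, and the controls were Myh11-CreERT2+; Prdm16 W/W, so both groups carried the Cre transgene. Mice of both groups received tamoxifen from 8 weeks of age at 1 mg per day for 10 days, followed by 2 weeks of washout and another 60 days. The Myh11 promoter directs Cre to smooth muscle cells, and bulk counts do not show in which cells Prdm16 was lost. Library totals ranged from 24911609 counts in control 3 to 40460467 counts in iSM KO 1. Over the whole gene, Prdm16 averaged 195 ± 24.5 CPM in the 3 controls and 95.4 ± 16.5 CPM in the 3 iSM KO aortas (SD). CPM are counts relative to each library's TMM-adjusted total, brought to the usual common scale.

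Of the 7 receptor genes, 2 were higher and 1 was lower in iSM KO aortas at an FDR under 0.05 and a fold change over 2, the threshold at which a gene is called changed. Over all tested genes, 1.40% were called higher, 1.38% lower and 2.78% in either direction. Adra1b and Adra2b rose and Adra1a fell, and Adra2b passed the filter on low counts only through the group where it is high. Adra1d, the receptor gene with the highest level, also fell with an FDR under 0.05 but by a smaller fold, so 4 receptor genes passed the FDR, against 7.56% of all tested genes. For Adra2a, Adra2c and Adrb1 the FDR was over 0.05 (edgeR's quasi-likelihood test). The CPM of the groups did not overlap for 6 of the 7 genes, where 27.9% of tested genes showed no overlap. The median log2 fold change of the 7 genes was -0.65, with 3 higher and 4 lower, and that of all tested genes was -0.014. Fold changes are iSM KO over control, so negative values are lower in iSM KO.

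**Figure D1:**
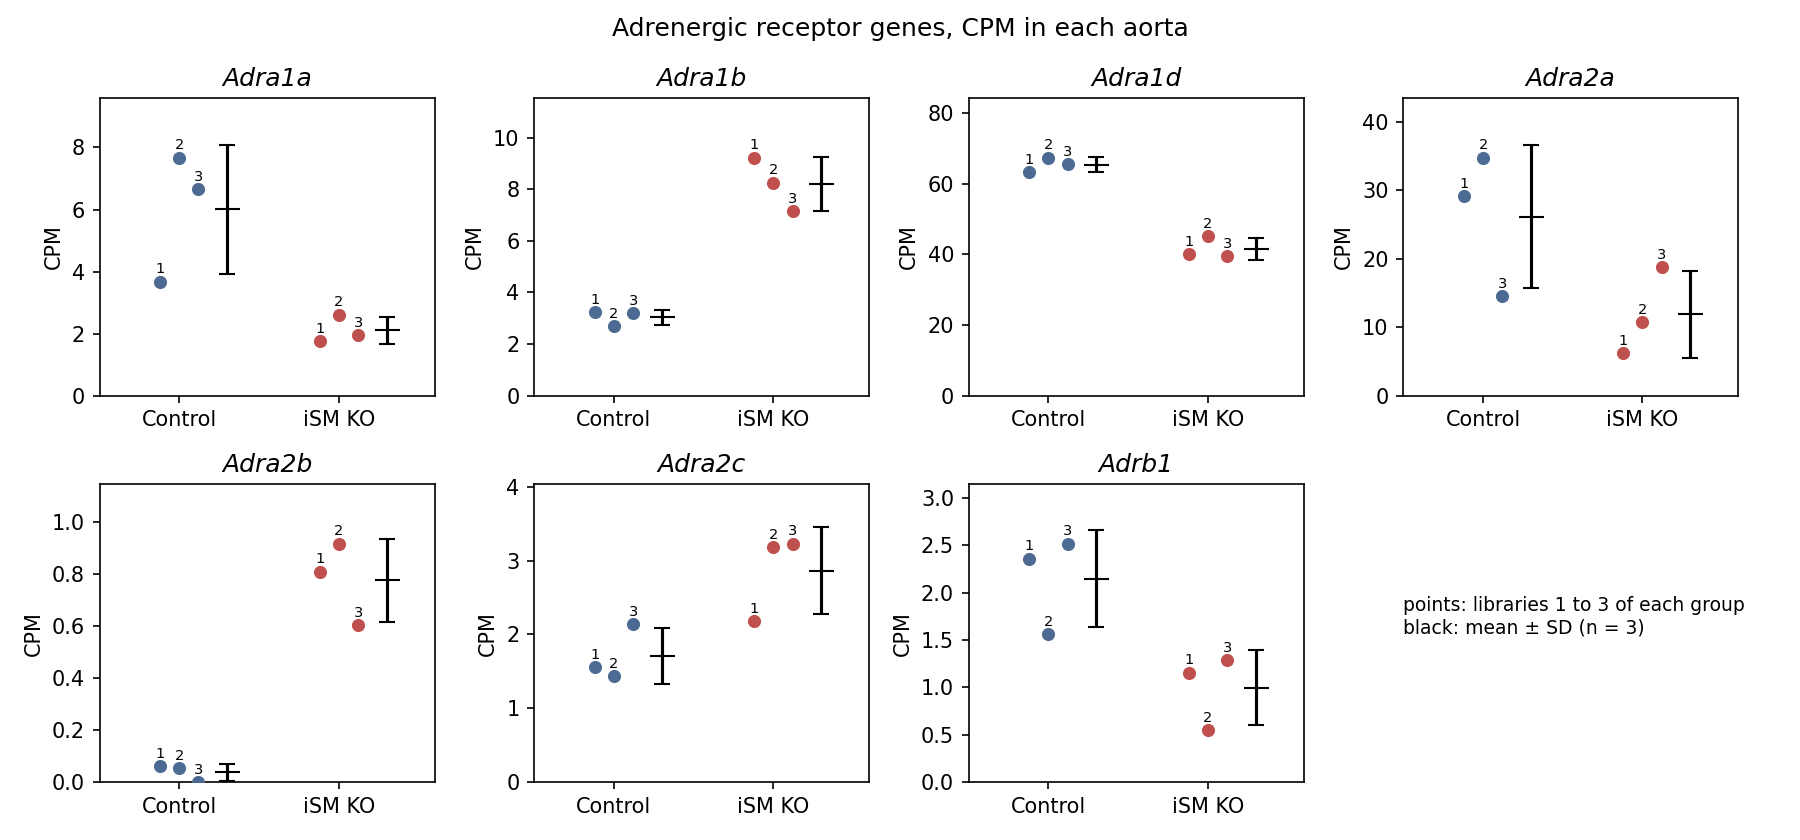
CPM of each receptor gene in the 6 aortas, with each axis starting at 0, blue points for controls, red points for iSM KO mice, numbers for the mouse within its group and black bars for mean ± SD (n = 3). Adra1b and Adra2b were higher in each iSM KO library than in any control, Adra1a, Adra1d and Adrb1 were lower in each, and Adra2a is the gene whose groups overlap.

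The promoter sequences of the 2 genes that rose are shown first, since these are the sequences at which their transcripts begin. Adra1b (ENSMUSG00000050541) is on chromosome 11 of GRCm38 (mm10), minus strand, from 43774606 to 43901210, and RefSeq (GRCm38.p6) gives it 2 start regions. Adra2b (ENSMUSG00000058620) lies on the plus strand of chromosome 2, from 127363208 to 127367221. Each sequence below covers 250 bases before and 50 bases after a start, with matches to the GC box GGGCGG on either strand in capitals. The first is the upstream start region of Adra1b (chr11:43901188-43901487, minus strand), the next its downstream start region (chr11:43836440-43836739, minus strand) and the last that of Adra2b (chr2:127362929-127363228, plus strand).
Adra1b upstream: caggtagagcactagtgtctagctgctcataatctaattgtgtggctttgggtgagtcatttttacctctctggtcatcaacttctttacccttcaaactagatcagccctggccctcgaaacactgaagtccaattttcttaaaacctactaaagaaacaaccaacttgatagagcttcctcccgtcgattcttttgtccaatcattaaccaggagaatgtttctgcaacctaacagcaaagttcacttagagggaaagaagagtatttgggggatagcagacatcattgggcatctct
Adra1b downstream: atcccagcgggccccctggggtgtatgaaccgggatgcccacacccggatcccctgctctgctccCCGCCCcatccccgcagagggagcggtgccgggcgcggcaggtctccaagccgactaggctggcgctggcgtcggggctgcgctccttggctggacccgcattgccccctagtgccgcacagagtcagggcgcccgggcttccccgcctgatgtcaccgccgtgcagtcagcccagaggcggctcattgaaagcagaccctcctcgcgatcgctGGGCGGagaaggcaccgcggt
Adra2b: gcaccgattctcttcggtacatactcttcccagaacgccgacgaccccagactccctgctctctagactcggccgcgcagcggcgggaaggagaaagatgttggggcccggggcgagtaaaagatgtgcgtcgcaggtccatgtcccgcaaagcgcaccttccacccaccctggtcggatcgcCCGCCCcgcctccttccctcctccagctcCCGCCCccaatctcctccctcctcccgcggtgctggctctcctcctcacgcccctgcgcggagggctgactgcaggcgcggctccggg

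The 2 start regions of Adra1b differ in composition. The upstream region is 42.3% G and C with 3 CpG dinucleotides and no GC box, and the downstream region is 71.3% G and C with 28 CpG and 2 GC boxes. The Adra2b region is 68.0% G and C with 29 CpG and 2 GC boxes. Over 32851 RefSeq promoter windows of the same length, the median was 52.7% G and C and 7 CpG, and 35.7% held a GC box. The TATA box TATAAA, sought on both strands, was in neither start region of Adra1b nor in that of Adra2b, and 13.6% of all windows held it. Counts cover whole genes, so the transcripts from the 2 starts of Adra1b cannot be told apart. The windows of Adra2a and Adrb1, with 68.7% and 72.3% G and C, were of the same GC-rich kind and that of Adra2c, with 51.3% G and C, was near the median. Entries were found for 5 of the 7 genes, and not for Adra1a or Adra1d.

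The α1 receptors are the main receptors through which noradrenaline contracts the mouse aorta, and Adra1d was the most abundant of them. Adra1d (ENSMUSG00000027335, chromosome 2, minus strand, 131545850 to 131562283) was at 63.1, 67.3 and 65.5 CPM in controls 1 to 3 and at 40.1, 45.1 and 39.5 CPM in iSM KO 1 to 3. All iSM KO values lay below the lowest control, and both groups were tight. The group means were 65.3 ± 2.11 and 41.6 ± 3.12 CPM (SD, n = 3), a log2 fold change that edgeR put at -0.65 ± 0.079 (SE) with an FDR of 0.00163, so controls were 1.57-fold higher. When single libraries were left out, the log2 fold change stayed between -0.72 and -0.62 and the FDR under 0.05 each time, 6 of 6. Adra1d is the receptor gene whose counts were not whole numbers, in 6 of 6 libraries. It shares 147 bases of exon with Gm14285, an antisense gene on the opposite strand, and the sources do not state whether counting used strand. Gm14285 itself was counted at 3.05 to 12.4 reads per library, against 1441 to 2588 for Adra1d.

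Adra1b encodes a second α1 receptor of smooth muscle. It was at 3.22, 2.68 and 3.19 CPM in controls 1 to 3 and at 9.23, 8.25 and 7.15 CPM in iSM KO 1 to 3. The lowest iSM KO library was above the highest control, and the counts behind these values were 76 to 108 reads in controls and 261 to 376 in iSM KO. The means were 3.03 ± 0.30 and 8.21 ± 1.04 CPM (SD, n = 3), a log2 fold change that edgeR put at 1.44 ± 0.16 (SE) with an FDR of 0.00102, which is 2.72-fold higher. Leaving out any single library kept the call (6 of 6), with log2 fold changes from 1.35 to 1.53, as did each of the 6 other alternatives.

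Adra1a encodes the α1 receptor that predominates in many resistance arteries. Its gene (ENSMUSG00000045875) lies on the plus strand of chromosome 14, from 66635251 to 66771168. Adra1a was at 3.67, 7.68 and 6.67 CPM in controls 1 to 3 and at 1.77, 2.61 and 1.94 CPM in iSM KO 1 to 3. The groups did not overlap, and control 1 was nearer to the iSM KO libraries than the other controls were. The means were 6.01 ± 2.08 and 2.11 ± 0.44 CPM (SD, n = 3), a log2 fold change that edgeR put at -1.51 ± 0.29 (SE) with an FDR of 0.0142, or 2.85-fold higher in controls. Without control 3 the FDR was 0.0567 and without iSM KO 1 it was 0.0595, so the call held for 4 of the 6 libraries that could be left out. Over these and the 6 other alternatives the FDR ranged from 1.00e-05 to 0.0595, and the log2 fold change stayed between -1.77 and -1.28.

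Most adipocyte markers were also lower in iSM KO. Of 8 adipocyte markers 7 were tested, and 5 of these were called lower, while 1 was higher in the mean. The summed level of the list was 508 to 646 CPM in controls and 464 to 553 CPM in the iSM KO, and no marker of the list was at 0 in every library. Most of the sum was Plin4, a lipid droplet protein, whose means were 460.4 ± 17.7 in controls against 487 ± 50.8 CPM with the deletion (SD, n = 3), with an edgeR FDR of 0.666. Fabp4, a fatty acid-binding protein of adipocytes and some endothelium, fell from 42.3 ± 19.4 to 6.54 ± 1.23 CPM, with an edgeR FDR of 0.00233. Adipoq, which encodes the adipocyte hormone adiponectin and was named after its values were seen, was at 1.40, 11.1 and 4.61 CPM in controls 1 to 3 and at 0.32, 0.17 and 0.63 CPM in iSM KO 1 to 3. Among the controls, Adipoq and Adra1a were both highest in control 2 and lowest in control 1. Among the iSM KO libraries, Adra1a was highest in iSM KO 2 and Adipoq in iSM KO 3. Adipoq was low in every iSM KO library, and these orders are given as a description. The summed adipocyte level, most of it Plin4, did not rank the 6 libraries as Adra1a did. A sum led by 1 gene cannot stand for the markers that fell. Without control 2 the log2 fold change of Adra1a was -1.28 (FDR = 0.0396, edgeR). The part of these markers in the Adra1a result was not tested.

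Per kilobase of exon, the make-up of the α1 genes differed between the groups. Dividing CPM by the exon length of 1.899 kb for Adra1d, 3.382 kb for Adra1b and 8.728 kb for Adra1a puts the genes on 1 scale. On it, Adra1b made up 2.75%, 2.13% and 2.60% of the summed α1 level in controls 1 to 3 and 11.4%, 9.21% and 9.14% in iSM KO 1 to 3. The share of Adra1a was 1.22%, 2.37% and 2.11% in controls and 0.84%, 1.13% and 0.96% in iSM KO. Adra1d kept the largest share, at 95.3% to 96.0% in controls and 87.8% to 89.9% in iSM KO. The ratio of Adra1b to Adra1a was 2.27, 0.90 and 1.23 in controls 1 to 3, which puts these 2 genes near each other, and 13.5, 8.17 and 9.49 in iSM KO 1 to 3. The summed α1 level was 36.0 ± 1.27 in controls and 24.5 ± 1.76 CPM per kb in iSM KO (SD, n = 3), with no overlap. These shares and sums follow from the 3 genes above and carry no test of their own. Without division by length Adra1b made up 4.09% and 15.8% of the sum in the 2 groups.

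**Figure D2:**
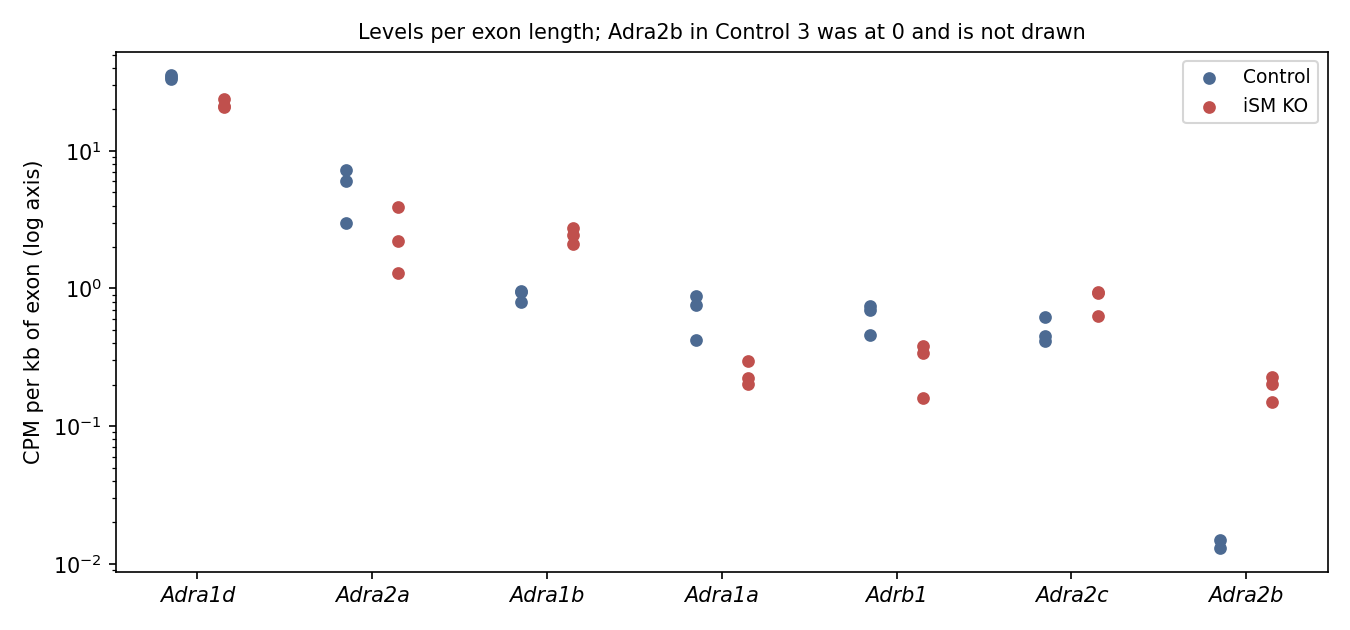
CPM per kb of exon of the 7 receptor genes on a log axis, ordered by their mean in controls, with blue points for control libraries and red points for iSM KO libraries. Adra1d lies above the other genes in both groups, and Adra2b goes from near the bottom of the axis in controls to 0.15 to 0.23 CPM per kb in iSM KO, with control 3 at 0 and not drawn.

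The α2 receptors gave 3 different patterns, with Adra2b the receptor gene of the largest fold change. Adra2b encodes an α2 receptor known for a vasoconstrictor response in smooth muscle. It had 2, 2 and 0 reads in controls 1 to 3 and 33, 32 and 22 reads in iSM KO 1 to 3. In each control the count was under 3 reads, the floor used here for detection, so the gene was not clearly detected there, while each iSM KO library was well above that floor. In CPM these are 0.060, 0.052 and 0 in controls and 0.81, 0.92 and 0.60 in iSM KO. The ratio of the summed counts, scaled by library totals, was 18.6 (95% exact interval 7.0 to 69.7, counting error only). The FDR was 0.00277 (edgeR's quasi-likelihood test). The call held with any single library left out (6 of 6) and in all 6 other alternatives. Adra2b passed the filter on low counts only through the iSM KO group, where it is high. These fits are therefore given as a description. The fitted log2 fold change of 4.12 (standard error 0.55) depends on how a count of 0 is handled. Even in iSM KO, Adra2b had the lowest mean of the 7 genes, at 0.19 ± 0.040 CPM per kb (SD, n = 3), overlapping that of Adra1a.

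Adra2c (ENSMUSG00000045318, chromosome 5, plus strand, 35278319 to 35281763) encodes an α2 receptor with known roles on sympathetic nerve endings and in vascular smooth muscle. It was at 1.55, 1.43 and 2.14 CPM in controls 1 to 3 and at 2.18, 3.18 and 3.23 CPM in iSM KO 1 to 3. The groups just failed to overlap, with control 3 close to iSM KO 1. The log2 fold change by edgeR was 0.76 ± 0.25 (SE) with an FDR of 0.114, and it did not pass the FDR in any alternative, with values from 0.0798 to 0.333.

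Adra2a (ENSMUSG00000033717, chromosome 19, plus strand, 54044151 to 54048982) encodes the α2 receptor of many endothelial cells and nerve endings. It was at 29.2, 34.8 and 14.5 CPM in controls 1 to 3 and at 6.23, 10.7 and 18.8 CPM in iSM KO 1 to 3. The groups overlapped, since iSM KO 3 was above control 3. The means were 26.2 ± 10.5 and 11.9 ± 6.34 CPM (SD, n = 3), a log2 fold change that edgeR put at -1.15 ± 0.40 (SE) with an FDR of 0.131. Without iSM KO 3 the log2 fold change was -1.64 and the FDR 0.0360, and without the filter on low counts the FDR was 0.00374. Over all alternatives the FDR ranged from 0.00374 to 0.330.

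The summed level of endothelial markers moved with Adra2a. The summed CPM of 7 endothelial markers was 899, 1062 and 509 in controls 1 to 3 and 273, 482 and 811 in iSM KO 1 to 3. Of the 7, all tested, 0 passed the FDR and 7 were lower in the mean. Ranked by this sum, the 6 libraries stood in the same order as when ranked by Adra2a, with control 2 highest and iSM KO 1 lowest. Of the 7 markers, 4 gave that order too, Pecam1, Tek, Nos3 and Vwf. Cdh5, Tie1 and Kdr did not, and Kdr was lowest of all in control 1. The order shared with Adra2a was noticed after the values were seen. Among 63 pairs of a receptor gene and a marker list, 2 shared the order of all 6 libraries, the other being Adra1b with 6 cardiomyocyte markers, whose summed level was 5.59 to 7.10 CPM in controls and 8.10 to 9.84 CPM in the iSM KO. Of the 3 cardiomyocyte markers tested, Actn2 was higher and Myh6 and Tnni3 were lower in the mean, with a median log2 fold change of -0.24, and their part in the Adra1b result was not tested. As a percentage of the endothelial sum, Adra2a was 3.25, 3.28 and 2.85 in controls and 2.28, 2.23 and 2.31 in iSM KO. The groups did not overlap on this scale, which was chosen after the values were seen. How many other genes separate on it was not examined. The part of endothelial content in the Adra2a result was not tested. In bulk tissue, fewer cells of a type and less RNA per cell cannot be told apart.

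**Figure D3:**
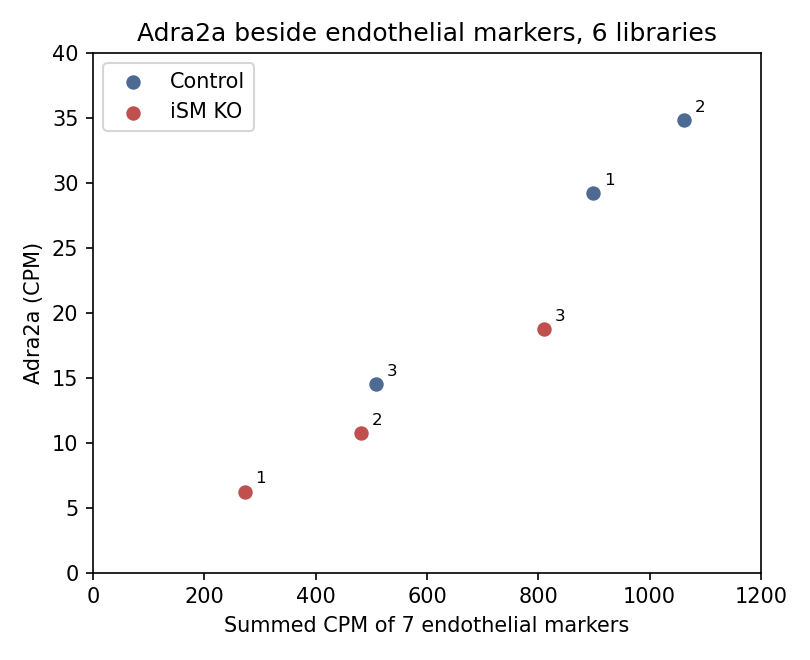
Adra2a CPM against the summed CPM of 7 endothelial markers in the 6 libraries, with blue points for controls, red points for iSM KO and numbers for the mouse. Both axes start at 0, and the order of the libraries is the same on both, from iSM KO 1 (273 and 6.23 CPM) to control 2 (1062 and 34.8 CPM).

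The β1 receptor, encoded by Adrb1 on chromosome 19 (56722199 to 56733113, plus strand), raises heart rate and contractility in the heart and is also found in fat and vessels. Adrb1 was at 2.36, 1.56 and 2.52 CPM in controls 1 to 3 and at 1.15, 0.54 and 1.29 CPM in iSM KO 1 to 3. The groups did not overlap, control 2 being the lowest control and iSM KO 2 the lowest of all with 19 reads. The means were 2.15 ± 0.51 and 0.99 ± 0.40 CPM (SD, n = 3), a log2 fold change that edgeR put at -1.09 ± 0.35 (SE) with an FDR of 0.102. DESeq2 gave an FDR of 0.0434 and edgeR on unfiltered counts 0.0438, and the FDR ranged from 0.0434 to 0.260 over all alternatives. Adipocyte markers, given beside Adra1a, were mostly lower in iSM KO as well, and their part in the Adrb1 result was not tested.

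**Figure D4:**
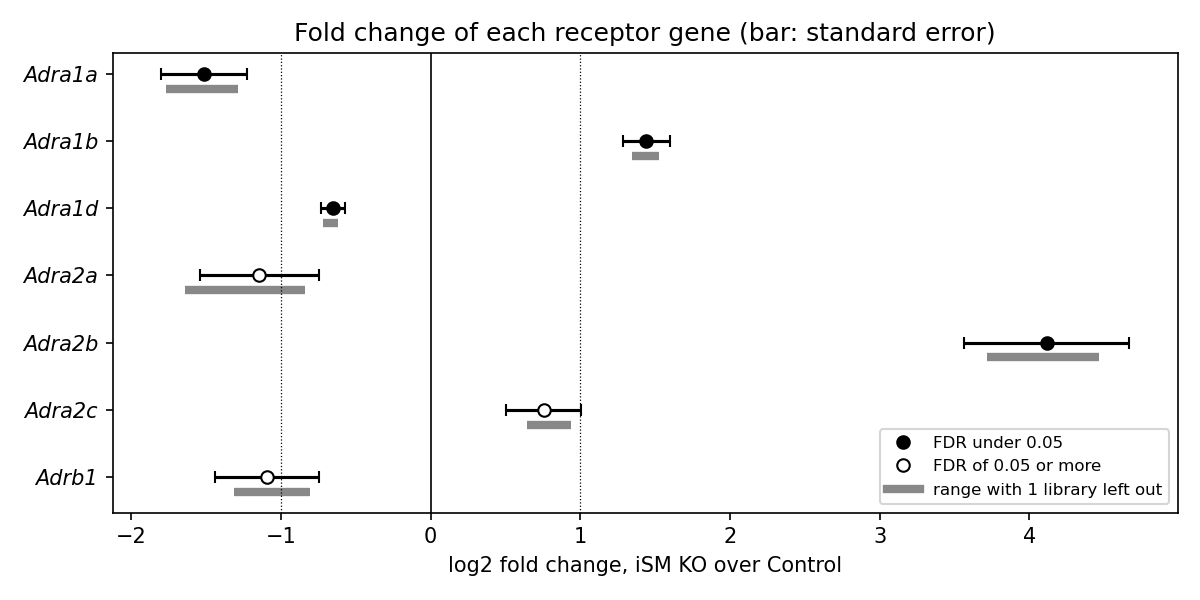
The log2 fold change of each receptor gene (iSM KO over control) with its standard error, filled where the FDR is under 0.05, and dotted lines at a fold change of 2. Grey bars give the range with each of the 6 libraries left out in turn, and no bar crosses 0.

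In control aortas the order of levels per kilobase was Adra1d (34.4 ± 1.11 CPM per kb), Adra2a (5.42 ± 2.17), Adra1b (0.90 ± 0.090), Adra1a (0.69 ± 0.24), Adrb1 (0.63 ± 0.15), Adra2c (0.50 ± 0.11) and Adra2b (0.0093 ± 0.0081; SD, n = 3 each). The ranges of Adra1b, Adra1a, Adrb1 and Adra2c overlapped from each gene to the next, so the order among them is not set. In iSM KO aortas Adra1d stayed first at 21.9 ± 1.64 CPM per kb. Adra2a (2.46 ± 1.31) and Adra1b (2.43 ± 0.31) overlapped, Adra2c (0.83 ± 0.17) came next, and Adrb1 (0.29 ± 0.12), Adra1a (0.24 ± 0.051) and Adra2b overlapped from each to the next. Exon lengths come from GENCODE release M21, an earlier annotation of the same build than the one used for counting.

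The smooth muscle identity of the tissue was clear in both groups. The 7 smooth muscle markers summed to 22392 to 27357 CPM in controls and 24004 to 26415 CPM in the iSM KO. Of these markers 1 passed the FDR, higher in iSM KO, with 0 called. Myocd, named after its values were seen, was at 216, 206 and 162 CPM in controls 1 to 3. In iSM KO 1 to 3 it was at 329, 296 and 290 CPM, with no overlap. Myh11, the smooth muscle myosin heavy chain, was at 7788 ± 438 and 9011 ± 380 CPM, and Acta2, smooth muscle actin, at 8622 ± 1746 and 7806 ± 864 CPM (SD, n = 3). All 6 fibroblast markers were lower in the mean (median log2 fold change -0.76), and 1 was called lower. Their sums were 153 to 332 CPM in controls and 125 to 185 CPM in the iSM KO, led by Dcn and Pdgfra. Of 4 brown adipocyte markers 2 were tested, and 1 was called lower. Their sum was 3.46, 10.9 and 45.6 CPM in controls 1 to 3 and 2.61 to 5.03 CPM in iSM KO, with Ucp1 at 33.0 CPM in control 3 and Cidea, which fell, at 5.84 ± 2.75 and 1.58 ± 0.11 CPM. Macrophage markers (Lyz2 and Csf1r highest, 26.3 to 31.0 and 11.0 to 30.4 CPM in sum) and skeletal muscle markers (Ckm and Tnnt3 highest, 3.14 to 4.27 and 2.32 to 2.90 CPM) had 0 genes past the FDR. All 6 macrophage markers (median log2 fold change -0.57) and the 2 skeletal muscle markers tested (median -0.40) were lower in the mean. Of the cardiomyocyte markers Actn2 had an FDR of 0.0154 (edgeR), at 4.47 ± 0.35 and 7.65 ± 1.01 CPM, and Myh6 was at 0.98 ± 0.72 and 0.54 ± 0.22 CPM.

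The rest of the adrenergic pathway was examined in 4 lists of catecholamine handling and signalling genes, 39 genes in all. Of 32 tested, 0 were called at a fold change over 2, where 2.78% of all tested genes were called, and 3 had an FDR under 0.05. These 3 are 9.38% of the genes tested in the lists, near the 7.56% over all tested genes. Among 12 genes of catecholamine synthesis, storage, uptake and breakdown, 7 were tested and 1 passed the FDR, with a median log2 fold change of 0.13. Slc22a3, an extraneuronal transporter that clears catecholamines into non-neuronal cells, fell from 10.7 ± 1.44 to 5.63 ± 0.65 CPM (SD, n = 3) by a log2 fold change that edgeR put at -0.92 ± 0.15 (SE) with an FDR of 0.00617. Its libraries were at 11.1, 9.11 and 11.9 CPM in controls 1 to 3 and at 5.64, 6.28 and 4.98 CPM in iSM KO 1 to 3, with no overlap. The genes that make noradrenaline in nerve cells were at or near 0. Th, tyrosine hydroxylase, had 3 reads in control 3, 2 reads in iSM KO 3 and 0 in the other libraries. Dbh, dopamine β-hydroxylase, had 0 reads in every library, which allows up to 0.0736 to 0.126 CPM by the floor of 3 reads.

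No gene among the G protein α subunits and their effectors was called, where 2.78% of all tested genes were. Of 12 Gα genes, 11 were tested and 1 passed the FDR, with a median log2 fold change of 0.013. Gnao1, which encodes Gαo of the Gi family, was at 83.2, 61.3 and 59.5 CPM in controls 1 to 3 and at 97.9, 115 and 107 CPM in iSM KO 1 to 3. The groups did not overlap, and the log2 fold change by edgeR was 0.64 ± 0.13 (SE) with an FDR of 0.0196. Of 8 genes of phospholipase C β and protein kinase C, 7 were tested and 0 passed the FDR, with a median log2 fold change of 0.19. The 2 most abundant, Plcb4 and Plcb3, were at 354 ± 34.2 and 87.8 ± 7.72 CPM in controls and at 316 ± 10.5 and 100.3 ± 3.91 CPM in the iSM KO libraries (SD, n = 3). All 7 receptor kinases and arrestins, which desensitize activated receptors, were tested, with a median log2 fold change of 0.016. Of these 1 passed the FDR, Grk3, a kinase that phosphorylates agonist-occupied receptors, which fell from 17.6 ± 0.63 to 13.2 ± 1.20 CPM (log2 fold change -0.42, standard error 0.10, FDR = 0.0381, edgeR).

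**Figure D5:**
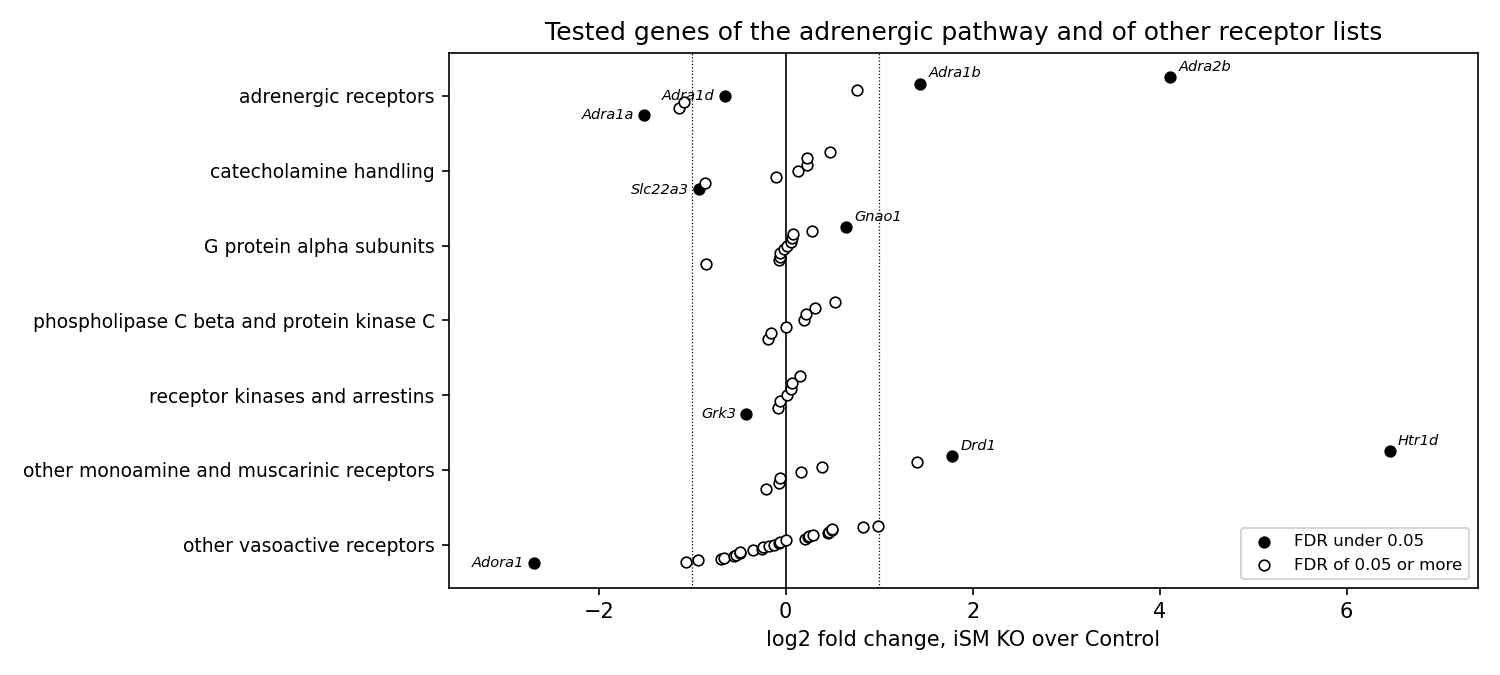
The log2 fold change (iSM KO over control) of each tested gene in the 7 lists, each gene a point, filled and named where the FDR is under 0.05, with dotted lines at a fold change of 2. In the 4 lists of catecholamine handling and signalling no point with an FDR under 0.05 lies beyond a fold change of 2. Of all tested genes 2.78% pass both thresholds. Adra1a, Adra1b and Adra2b pass both, as do Htr1d, Drd1 and Adora1 of the other receptor lists.

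Genes next to the receptor loci are given as a description. For the 4 receptor genes with an FDR under 0.05, the nearest tested protein-coding genes on both sides did not pass the FDR. Over all tested genes 7.56% passed it, so this outcome is near the background for so few genes. Ttc1 and Ublcp1, beside Adra1b, had log2 fold changes of 0.010 and -0.076. Stard7 and Fahd2a, beside Adra2b, were at 0.021 and 0.096, and Stmn4 and Dpysl2, beside Adra1a, at -0.028 and 0.049. Smox and Prnp, beside Adra1d, were at 0.53 and 0.33 (edgeR FDR = 0.0887 and 0.0850). Their distances ran from 19.9 kb for Smox to 553 kb for Ublcp1.

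By Pearson's correlation of log2 CPM over the 6 libraries, given as a description, the genes most like Adra1a were Notch3, Gm14303 and 1110008P14Rik (0.996, 0.994 and 0.990). Those most like Adra1b were Usp24, Gm41609 and Ide (0.999, 0.998 and 0.997), and Ide, insulin-degrading enzyme, was higher with a log2 fold change of 0.97 (FDR = 2.10e-04, edgeR). For Adra1d they were Nedd8, Lpar4 and Klrg2 (0.995, 0.991 and 0.989), and for Adra2b Rnf10, 4930402H24Rik and Trim36 (0.999, 0.998 and 0.998). A correlation over 0.95 was reached by 58 genes for Adra1a, 335 for Adra1b, 151 for Adra1d and 439 for Adra2b, so these genes are not singled out by it.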

How the data were processed

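RNA-seq libraries of 6 aortas, 3 per group, were analysed. The authors sequenced 150-bp paired-end reads, mapped and quantified them on the Ensembl release 101 mouse reference (mm10) with Illumina DRAGEN (version not given in the sources used here) and deposited estimated counts per gene, not normalized, of which 10.9% to 12.2% per library were not whole. How multi-mapping or overlapping reads were shared is not stated.

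Counts were rounded, and a gene was kept where every library of 1 or both groups had more than 10 counts (16565 genes). iSM KO was compared with control in edgeR 4.0.16 under R 4.3.3 (TMM factors, quasi-likelihood test, no covariates), with Benjamini-Hochberg adjustment over all genes. The quasi-likelihood test gives no standard error (SE). Each SE was taken as the absolute log2 fold change divided by the square root of the test's F statistic. The authors used DESeq2, here version 1.42.0 and an alternative. Other alternatives were limma-voom (limma 3.58.1), DESeq2 size factors in edgeR, no filter, filterByExpr, a replicate block and leaving out each library. The scripts were tested on simulated data. For 1 gene and 3 mice against 3, p = 0.1 is the smallest an exact permutation test can give. Intervals and the floor of 3 reads cover counting error only.

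Named are the 7 receptors, Prdm16, up to 5 genes with an FDR under 0.05 per pathway list (otherwise the 2 most abundant), the 2 most abundant markers per cell type (1 marker list is not reported here), and the neighbours and 3 most alike genes of receptors past the FDR. Adipoq, Myocd and the endothelial markers that shared the order of Adra2a were named after their values were seen. Receptors and lists were chosen with earlier results of these data known. Positions and exon lengths come from GENCODE M21, and promoters from RefSeq (GRCm38.p6). Ratios and intervals were computed with SciPy 1.17.1.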

Additional observations from a re-analysis of the deposited data

How the results depend on the processing

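All 7 receptor genes kept their direction in the 6 alternatives and in the 6 fits that each left out 1 library. The call of Adra1a was lost without control 3 or iSM KO 1, with log2 fold changes over the left-out libraries from -1.77 to -1.28. Adra2a was called with no filter on low counts (-1.14) and without iSM KO 3, with values from -1.64 to -0.84 over the left-out libraries. Adrb1 was called with no filter (-1.09) and with DESeq2 (-1.09). The number of receptors called lower was 3 with no filter, 2 with DESeq2 and 0 to 2 with a library left out (0 without control 3 or iSM KO 1, 2 without iSM KO 3). Over all genes, 229 were called lower, 349 with no filter and 128 to 317 with a library left out, lowest without iSM KO 2 and at 133 without iSM KO 1. Without one library, catecholamine handling genes called lower numbered 0 to 1, other vasoactive receptors called higher 0 to 1 and called lower 1 to 2. The cause was not tested.

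Counts not divided by exon length gave α1 shares of 7.99% and 4.04% for Adra1a, 4.09% and 15.8% for Adra1b and 87.9% and 80.1% for Adra1d in controls and iSM KO. Same-numbered libraries did not deviate together (correlations of -0.13, -0.045 and -0.11). With 3 libraries per group this cannot show whether the numbers pair the mice. With the replicate block 188 genes were called higher and 165 lower, and 2 receptors were called higher and 1 lower. Adra2b, at 0 to 2 reads per control, and Adrb1, at 19 to 79 reads per library, are the receptors that depth limits most.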

Other observations

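Among 24 other monoamine and muscarinic receptor genes, 8 were tested, 2 were called higher and 0 lower, with a median log2 fold change of 0.27. Over all tested genes 1.40% were called higher. Htr1d, a serotonin receptor of the Gi-coupled group, had 3, 1 and 1 reads in controls 1 to 3 and 191, 222 and 136 reads in iSM KO 1 to 3. Each iSM KO library was far above each control, and the ratio of the summed counts was 93.7 (95% exact interval 39.9 to 290, counting error only). Its FDR was 7.00e-05 (edgeR), and Htr1d passed the filter on low counts only through its counts in the iSM KO group. Drd1, the Gs-coupled dopamine D1 receptor, was at 1.40, 1.43 and 1.22 CPM in controls 1 to 3 and at 5.45, 3.93 and 4.60 CPM in iSM KO 1 to 3. It rose by a log2 fold change that edgeR put at 1.78 ± 0.20 (SE) with an FDR of 0.00121, with no overlap. The abundant serotonin receptor gene of the list, Htr1b, named after its values were seen, was at 39.6 to 42.8 CPM in controls and 38.7 to 40.3 CPM in iSM KO.

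Among 31 other vasoactive receptor genes, 27 were tested, 0 were called higher and 1 lower, with a median log2 fold change of -0.13. That is little different from the 2.78% of all tested genes called in either direction. Adora1, the Gi-coupled adenosine A1 receptor, fell from a mean of 5.95 ± 1.11 to 0.93 ± 0.25 CPM (SD, n = 3) by a log2 fold change that edgeR put at -2.69 ± 0.25 (SE) with an FDR of 4.25e-04. Its libraries were at 5.64, 7.18 and 5.03 CPM in controls 1 to 3 and at 0.69, 0.92 and 1.18 CPM in iSM KO 1 to 3, with no overlap.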
